A study of Drosophila melanogaster with 2 samples.

Results

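Chromosome 4 of Drosophila melanogaster carried 339 of the 27219 candidate binding sites mapped for the protein CG10654 in whole embryos. They are all the candidates that lie on chromosome 4 in the authors' pooled list. Of them, 15 also stand in the shorter list that passed a filter called IDR (irreproducible discovery rate), which compares ranks between replicates. That list held exactly the 4117 pooled candidates of highest signal. Passing was thus a cut on pooled signal, and not a check of each site in both replicates. The 15 are called IDR peaks here. Chromatin immunoprecipitation followed by sequencing (ChIP-seq) was done with an antibody against green fluorescent protein (GFP). The embryos were of mixed sex, 0 to 24 h old, and came from 1 stable transgenic line in which CG10654 carries GFP at its C-terminal end, so the tagged protein, and not the untagged one, was precipitated. The chromatin was sonicated to fragments of 200 to 800 bp. There are 2 biological replicates in a single group and nothing to compare them with, and the control library was not analysed here. A whole embryo mixes all tissues and stages of that day, and no value below can be given to a cell type.

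Chromosome 4 is the smallest chromosome of the fly, often called the dot chromosome. As background, most of it is packed as heterochromatin, rich in the protein HP1a and in scattered remains of transposable elements, and it hardly recombines. Its genes are nevertheless transcribed, and a chromosome-specific protein, POF, coats their bodies. Many of the genes encode regulators of development and of the nervous system.

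The sequences around 6 of the 15 IDR summits are shown because they carry 4 of the 5 strongest peaks (zfh2, lncRNA:CR43437, PlexA and gw; the third, at Cals, lies in a 3' UTR and is not shown), the peak richest in G and C (Asator) and the peak of lowest signal (CaMKII). Beside them stand the candidates of highest signal in a transposable element (sv, in a copy of INE-1) and in a coding exon (toy), which were chosen after their values were seen and did not pass IDR. Each is the plus strand of the Release 6 genome (dm6, RefSeq), the summit base with 50 bp on either side, and takes its name from the gene with the nearest annotated transcript start. Capitals mark any of 9 promoter or factor words described further on, on either strand.
zfh2: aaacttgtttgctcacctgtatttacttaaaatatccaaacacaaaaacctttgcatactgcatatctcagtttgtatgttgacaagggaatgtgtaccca
lncRNA:CR43437: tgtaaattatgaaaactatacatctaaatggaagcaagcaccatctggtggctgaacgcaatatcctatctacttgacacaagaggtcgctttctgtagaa
PlexA: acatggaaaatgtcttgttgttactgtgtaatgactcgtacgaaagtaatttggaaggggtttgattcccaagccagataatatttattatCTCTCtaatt
gw: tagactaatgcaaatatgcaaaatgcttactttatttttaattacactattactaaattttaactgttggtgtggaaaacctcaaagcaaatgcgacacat
Asator: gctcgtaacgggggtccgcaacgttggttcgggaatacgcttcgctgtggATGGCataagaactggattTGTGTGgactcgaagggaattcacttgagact
CaMKII: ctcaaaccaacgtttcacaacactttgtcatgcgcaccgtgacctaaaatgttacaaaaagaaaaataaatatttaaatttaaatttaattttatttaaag
sv: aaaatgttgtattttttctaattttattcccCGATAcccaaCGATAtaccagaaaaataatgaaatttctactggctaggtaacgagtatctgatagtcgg
toy: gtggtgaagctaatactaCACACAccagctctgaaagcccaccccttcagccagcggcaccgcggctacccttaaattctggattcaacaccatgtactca
Their summits lie on chromosome 4 at 497902, 424811, 1027263, 660088, 489523, 1054035, 1093658 and 1004527. The windows of zfh2, lncRNA:CR43437, gw and CaMKII held none of the 9 words. The PlexA window held the GAGA word, the Asator window the Pho word and the CA repeat, the sv window 2 copies of the BEAF word, and the toy window the CA repeat.

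The 15 IDR peaks had pooled signals from 108 to 430, with a median of 177. The signal is the authors' enrichment per peak. It has no absolute scale, and the lists differ in scale. It is ranked here only within a list, together with the percentile rank of the peak among all candidates of that list. All 15 had a summit within 100 bp in both replicates, as had 3945 of 4102 IDR peaks, or 96.2%, on the other arms. The median distance was 7 bp from the summit of either replicate, and the largest was 45 bp in replicate 1 and 98 bp in replicate 2. The 15 stood between ranks 304 and 3693 of the 27219 pooled candidates, so the strongest sites of the genome were on other arms, where the highest signal was 2484.

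**Figure D1:**
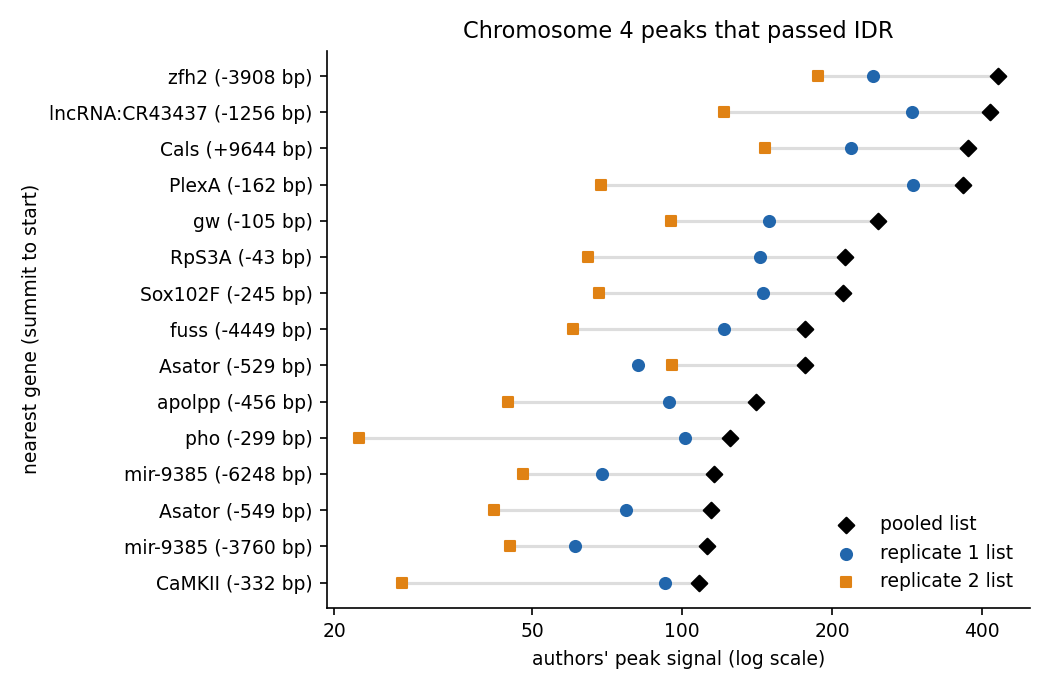
Signal of the 15 IDR peaks of chromosome 4 in the authors' pooled list (black diamonds), replicate 1 list (blue circles) and replicate 2 list (orange squares), on a log axis and in order of pooled signal. Each row names the gene with the nearest transcript start and the distance from that start to the summit in bp, below 0 upstream. The pooled value runs from 108 at CaMKII to 430 at zfh2, and replicate 1 is the higher of the 2 replicates at every peak but the Asator peak at -529 bp. The lists differ in scale.

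The 3 strongest peaks lay away from promoters. The highest signal was at 497902, 3908 bp upstream of zfh2, which encodes a zinc finger and homeodomain transcription factor. It was 430 in the pooled list, 242 in replicate 1 and 188 in replicate 2, and it stood at percentiles 97.9 and 99.5 of the replicates' lists. The second, at 424811, lay 1256 bp upstream of the long non-coding RNA lncRNA:CR43437, with a pooled signal of 414, 290 in replicate 1 and 121 in replicate 2. Both stand in intergenic sequence and were high in both replicates. The third, at 1113321, fell in the 3' UTR of Cals, which encodes a calsyntenin, a cadherin family membrane protein of neurons. Its signal was 375 in the pooled list, 218 in replicate 1 and 146 in replicate 2. Cals and its neighbour sv, which encodes a Pax family transcription factor, point towards each other there, and the summit lay 4 bp beyond the annotated end of sv and 9644 bp downstream of the nearest Cals start.

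Among IDR peaks at promoters (a summit within 500 bp of an annotated transcript start), PlexA was the strongest. PlexA encodes a receptor for semaphorins, which guide growing axons. Its summit lay 162 bp upstream of the start and had a pooled signal of 366, 291 in replicate 1 and 68.7 in replicate 2. The replicate 1 value was the highest of any candidate on chromosome 4 in that replicate, whereas in replicate 2 PlexA stood at percentile 94.95, below the peaks of zfh2, Cals, lncRNA:CR43437, gw and Asator. The peak at gw, whose protein acts with Argonaute in silencing by microRNAs, had a pooled signal of 247, with 149 and 94.9 in replicates 1 and 2. The peak at RpS3A, a protein of the small ribosomal subunit, had 212, with 143 and 64.8. The summits lay 105 bp upstream of one gw start and 43 bp upstream of the RpS3A start, the closest of the 15 to a start.

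The other promoter peaks lay farther upstream. At Sox102F, a Sox family transcription factor gene, the summit lay inside the gene, 245 bp upstream of an internal start, 1 of its 3 starts. It had a pooled signal of 210, 146 in replicate 1 and 68.2 in replicate 2. At apolpp, which encodes the apolipophorin that carries lipids in the blood, the summit was 456 bp upstream of an internal start. It lay within apolpp and the overlapping gene Zyx, with 141, 94.3 and 44.8. At pho, whose product recruits Polycomb proteins to DNA, the summit was 299 bp upstream with 125, 101 and 22.5. The 2 replicates differed most in rank at pho, at percentiles 90.2 and 72.3. At CaMKII, a calcium-dependent kinase of synapses, it was 332 bp upstream with 108, 92.4 and 27.4, and the replicate 2 value was again the lower in rank, at percentile 79.5 against 88.7 in replicate 1.

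Of the 15, 6 lay between positions 400001 and 500000, more than in any other window of 100 kb, and the next highest window, 1000001 to 1100000, held 3. The gap between dati and lgs runs from 395605, a transcript start of dati, to 436957, the 3' end of lgs. In it stood the peak upstream of lncRNA:CR43437 and the peaks at 404525 and 407013. The nearest start to the last 2 is that of the microRNA gene mir-9385, 3760 and 6248 bp away. The peaks at 404525, 407013 and 424811 lay 8920, 11408 and 29206 bp upstream of the dati start. The peak at 404525 had a pooled signal of 112, with 61.0 and 45.1 in the replicates, and that at 407013 had 116, with 69.2 and 48.0. Asator, whose protein is a kinase of the tau tubulin kinase family, had 2 peaks just outside the promoter window, at 486582 in an intron of the gene and at 489523 beyond its 5' end, 549 and 529 bp upstream of starts. The first had 114, with 77.1 and 42.0, and the second 177, with 81.5 and 95.3. The second was the only one of the 15 with a higher signal in replicate 2 than in replicate 1. The last, at 982938, lay 4449 bp upstream of fuss, a gene of the Ski and Sno family of corepressors, with 177, 121 and 60.4.

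The signal was higher in replicate 1 than in replicate 2 at 14 of the 15. The 2 lists differ in scale, with median signals on the other arms of 31.5 in replicate 1 and 15.7 in replicate 2. Values across lists are therefore read only beside those of the other arms. The pooled signal was between 0.904 and 1.06 times the sum of the replicates' signals, and replicate 1 made up from 46.1% of that sum, at Asator, to 81.8%, at pho, with a median of 66.8%. On the other arms the median over the 3945 IDR peaks matched in both replicates was 65.9%. By percentile, 5 of the 15 stood higher in replicate 1 than in replicate 2, near the 1273 of 3945, or 32.3%, on the other arms. Of the 15, 14 were among the 4117 strongest candidates of replicate 1, the number the IDR list holds, 13 among as many of replicate 2 and 12 among both. The same shares for IDR peaks of the other arms are not given here.

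Below the IDR threshold, which was a pooled signal of 99.3, the next candidates of chromosome 4 started at 87.1. The last 5 inside were CaMKII (108), mir-9385 (112), Asator (114), mir-9385 (116) and pho (125), and the first 5 outside were gw at 660733 (87.1), lncRNA:CR43437 (86.4), CG46466 (84.9), ey (82.7) and Gyf (82.3). The candidate at gw lay 125 bp upstream of the second gw start, so that both starts of the gene had one. The CG46466 candidate also lay within 500 bp of the start of Slip1. The rest of the 10 strongest that did not pass were nearest to Asator (81.7), Mitf (81.0), lgs (77.6), eIF4G1 (77.0) and Hcf (69.1). Of these 10, 8 were promoter candidates. In replicate 2, 7 of the 10 had a matched candidate, and those at Asator, eIF4G1 and Hcf had none within 100 bp. A weaker pooled candidate at 360142, 204 bp downstream of the Hcf start, was matched in replicate 2, with a signal of 27.0 there. As background, ey is the Pax6 gene of eye development, Mitf a regulator of lysosome genes, lgs an adaptor of Wnt signalling, Gyf and eIF4G1 act in translation, and Hcf is a cofactor of chromatin regulators.

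Compared with the other arms, few of the candidates of chromosome 4 were strong. It had 11.1 IDR peaks per Mb, against 28.8 to 32.7 on the other 5 arms. It also has fewer protein-coding genes per Mb, 59.3 against 93.3 to 113, for which these densities are not adjusted. Its 251 pooled candidates per Mb were above the 184 to 223 of the others, but the lists of the replicates differed in this. Replicate 1 had 182 per Mb on chromosome 4, within the 157 to 191 of the other arms, and replicate 2 had 332 against 208 to 243. Of its 339 candidates 15 passed IDR, or 4.42% (95% Wilson interval 2.70 to 7.17), against 15.1% of the candidates of all arms and 15.3% on the other arms. The odds ratio was 0.257, with an adjusted p of 2.19e-09 (2-sided Fisher's exact test, Benjamini-Hochberg over 6 tests), and each of the other arms alone, from 14.4% on 3L to 16.1% on 3R, lay above the interval of chromosome 4. These tests and intervals count regions or genes, which neighbour each other along a chromosome, and cover counting error only. The depth in reads behind the lists is unknown.

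The median pooled signal was 36.2 on chromosome 4, with quartiles of 30.7 and 45.3, against medians of 39.6 to 41.2 on the other arms and upper quartiles of 65.2 to 70.9. The lower quartiles of the other arms, 31.7 to 31.9, were near that of chromosome 4. The lists of all arms start at nearly the same lowest signal, 26.8 on chromosome 4 and 26.7 to 26.8 elsewhere. Lower quartiles close to that floor could differ little, and their likeness says nothing on weaker sites. Among the IDR peaks alone the median was 177 on chromosome 4 and 161 to 168 elsewhere. In the list of each replicate, too, few candidates of chromosome 4 were among the strongest. Of 246 candidates on chromosome 4 in replicate 1, 16 were among the 4117 strongest, or 11.9 per Mb against 28.5 to 32.5, and of 448 in replicate 2, 13 were, or 9.64 per Mb against 28.8 to 32.9.

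**Figure D2:**
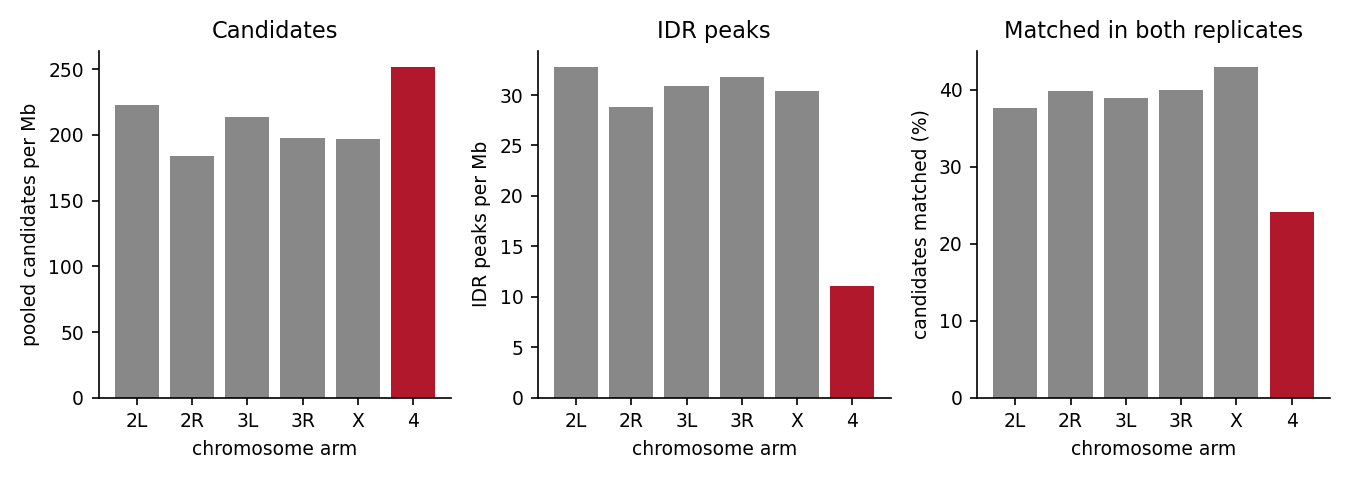
Pooled candidates per Mb, IDR peaks per Mb and the percentage of pooled candidates with a summit within 100 bp in both replicates, by chromosome arm, with chromosome 4 in red and the other 5 arms in grey. In the pooled list chromosome 4 has 251 candidates per Mb, more than the other arms, which did not hold in replicate 1 (182 against up to 191), and it has the fewest IDR peaks per Mb (11.1) and the lowest matched share (24.2%).

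The candidates of chromosome 4 were also matched less between replicates. A summit within 100 bp was present in both replicates for 82 of 339, or 24.2% (interval 19.9 to 29.0), against 39.6% over all arms and 39.8% on the other arms (odds ratio 0.483, adjusted p = 6.93e-09, 2-sided Fisher's exact test). Replicate 1 held a match for 56.3%, against 67.7% on the other arms, and replicate 2 for 49.3%, against 58.6%. A match in neither was seen for 63 candidates, or 18.6%, against 13.5%. Among candidates that did not pass IDR, 20.7% on chromosome 4 and 29.6% elsewhere were matched in both (odds ratio 0.619, adjusted p = 0.000538, exact test). Among candidates between the signal quartiles of chromosome 4, 15.4% on chromosome 4 and 15.9% elsewhere were matched in both (odds ratio 0.960, adjusted p = 0.916, exact test chosen after the data were seen), so the call was lost in that range of signal. The replicate lists compared directly gave 77 shared candidates on chromosome 4, which is 31.3% of those of replicate 1 and 17.2% of those of replicate 2, against 46.3% and 36.0% on the other arms. The list of replicate 2 held exactly 30000 candidates on dm6 and on dm3, a round number that could reflect a cap on its length, and its shares and ranks are read with that reserve.

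At promoters the contrast was between how many starts had a candidate and how many had a strong one. Promoter summits made up 88 of the 339 candidates, or 25.96% (interval 21.6 to 30.9), against 30.2% on the other arms, a difference that did not pass the test (odds ratio 0.810, adjusted p = 0.0954, 2-sided Fisher's exact test). Without replicate 1, in the list of replicate 2, it did pass (23.2% against 31.4%, odds ratio 0.661, adjusted p = 0.000206, exact test). Of the 88, 7 passed IDR, or 7.95% (3.91 to 15.5), against 26.6% of the promoter candidates elsewhere (odds ratio 0.239, adjusted p = 3.91e-05, exact test). Promoter candidates covered 59 of the 80 protein-coding genes of chromosome 4, or 73.8%, against 50.5% over all arms and 50.4% on the others (odds ratio 2.76, adjusted p = 3.91e-05, exact test). Chromosome 4 had 339 candidates for its 80 protein-coding genes, and the other arms had 26880 for 13865. The share of genes with a candidate is not adjusted for this, and does not by itself show a preference for promoters. An IDR promoter summit was present at 7 of the 80, or 8.75% (4.30 to 17.0), against 19.8% over all arms and 19.9% on the others (odds ratio 0.387, adjusted p = 0.0129, exact test). The call on IDR promoter genes was lost with the 2058 strongest IDR peaks, where 4 of 80 remained (adjusted p = 0.0921, exact test), and without replicate 2, where 10 of 80 had a summit among the strongest candidates of replicate 1 (adjusted p = 0.0954, exact test).

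All 7 IDR promoter summits lay upstream of the nearest start, from 43 to 456 bp away with a median of 245 bp. At gw, Sox102F and apolpp that start is internal, and the summit lay within the gene. Of the 81 promoter candidates that did not pass, 48 lay upstream and 33 downstream, with a median of 40 bp upstream, and 36 were within 100 bp of the start, as was 1 of the 7. On the other arms 1845 of 2157 IDR promoter summits lay upstream, with a median of 108 bp upstream, and 858 were within 100 bp. Of the 5964 promoter candidates there that did not pass, 3697 lay upstream, with a median of 50 bp upstream, and 2307 were within 100 bp. These positions are given as counts, without a test.

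**Figure D3:**
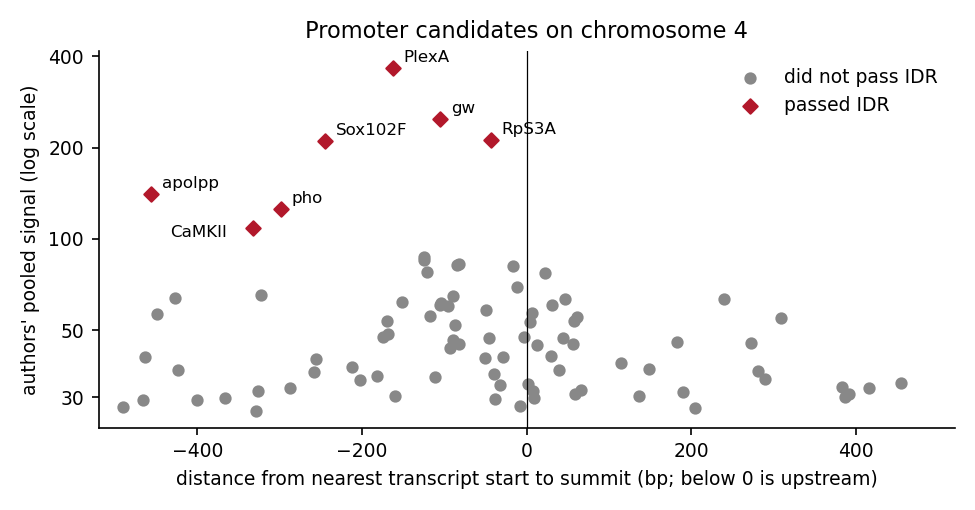
Pooled signal (log axis) of the 88 promoter candidates of chromosome 4 against the distance in bp from the nearest transcript start, below 0 upstream. Red diamonds passed IDR and are named, grey circles did not. The 7 IDR summits are all upstream of the nearest start, from -43 bp at RpS3A to -456 bp at apolpp. The others lie on both sides at signals of at most 87.1.

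Grouped by what the genes are known to do, candidates at promoters were found in every list. IDR peaks are counted for these lists only where they lie at a promoter of the gene. The values here are the highest pooled signal at a promoter of the gene, with a median of 53.5 over the 59 protein-coding genes that had one. Of 14 genes for transcription factors and their partners, 10 had a promoter candidate and 2 an IDR peak, Sox102F and pho. Those of highest signal after these 2 were Mitf (81.0) and Hcf (69.1). The 4 without one were sv, zfh2, onecut and fd102C, so zfh2, beside the strongest peak of the chromosome, had no candidate at its own start. The highest at pan, which encodes the transcription factor of Wnt signalling, was 65.1.

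Of 13 genes listed as neuronal or synaptic, 7 had a promoter candidate and 2 an IDR peak, PlexA and CaMKII. The next in signal were Tdg (55.4) and PlexB (46.3). The Tdg summit lay nearer to a start of Pur-alpha, 61 bp away against 223 bp for Tdg. Tdg entered the list under the older name Thd1, and its product is known as a thymine DNA glycosylase, a DNA repair enzyme and not a synaptic protein. Cals had no promoter candidate, although an IDR peak lay in its 3' UTR. Of 9 genes of basic cell functions 8 had a candidate, and 2, RpS3A and gw, an IDR peak. Next were Gyf (82.3) and eIF4G1 (77.0), and Ank, which encodes an ankyrin, had none. Of 7 signalling genes 6 had a candidate and none an IDR peak at a promoter. Asator (81.7), Crk (56.7), PIP4K (53.6) and Actbeta (40.8) were the highest, and mav was the one without a candidate. The 2 IDR peaks nearest to Asator lay just outside the promoter window. Both genes of muscle and cytoskeleton, bt (35.0) and Zyx (47.0), had a candidate and neither an IDR peak at a promoter. The apolpp IDR peak lay within Zyx. The Zyx value is that of another summit, which lay nearer to a start of apolpp, 44 bp away against 95 bp for Zyx. These counts stand against 59 of 80 with a promoter candidate and 7 of 80 with an IDR promoter peak over all protein-coding genes of the chromosome.

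Candidates of chromosome 4 lay in coding exons and in transposable elements more often than those of the other arms. Both comparisons were chosen after the data were seen. Coding exons held 57 summits, or 16.8% (13.2 to 21.2), against 4.67% elsewhere and 3.04 to 5.49% by arm (odds ratio 4.12, adjusted p = 6e-16, 2-sided Fisher's exact test, Benjamini-Hochberg over 8 tests). Coding sequence covers 19.7% of the bases of chromosome 4 and 17.0% of the other arms. None of the 57 passed IDR, and on the other arms 6 of 1256 did. The highest signal was 52.3, in toy, a second Pax6 gene, and 7 were matched in both replicates, or 12.3%, near the 11.6% of coding exon candidates elsewhere. They were spread over 39 genes, led by Cadps and apolpp with 4 each. The median GC content of their windows was 41.6%, against 54.5% for coding exon candidates on the other arms.

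Annotated transposable elements held 69 summits, or 20.4% (16.4 to 24.96), against 0.651% elsewhere (odds ratio 39.0, adjusted p = 2.51e-73, 2-sided Fisher's exact test). Such elements cover 24.8% of the bases of chromosome 4 and 5.74% of the other arms. Of the 69, 38 lay in INE-1, a short and abundant element of this chromosome, and 13 in the DNA transposon 1360. INE-1 had 390 candidates per Mb of its sequence on chromosome 4 and 222 on the other arms, 1360 had 255 and 43.5, and all other families together 108 and 9.95. None of the 69 passed IDR, against 11 of 175 on the other arms. Their signals ran from 26.9 to 67.0, the highest in an intron of sv, and their median of 34.7 was close to the 36.6 of the 270 candidates outside such elements. Without these candidates, 5.56% of those on chromosome 4 passed IDR against 15.3% elsewhere (adjusted p = 2.83e-06, exact test chosen after the data were seen). How reads that match several copies were treated is not given in the sources used here, and its part in these counts was not tested.

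**Figure D4:**
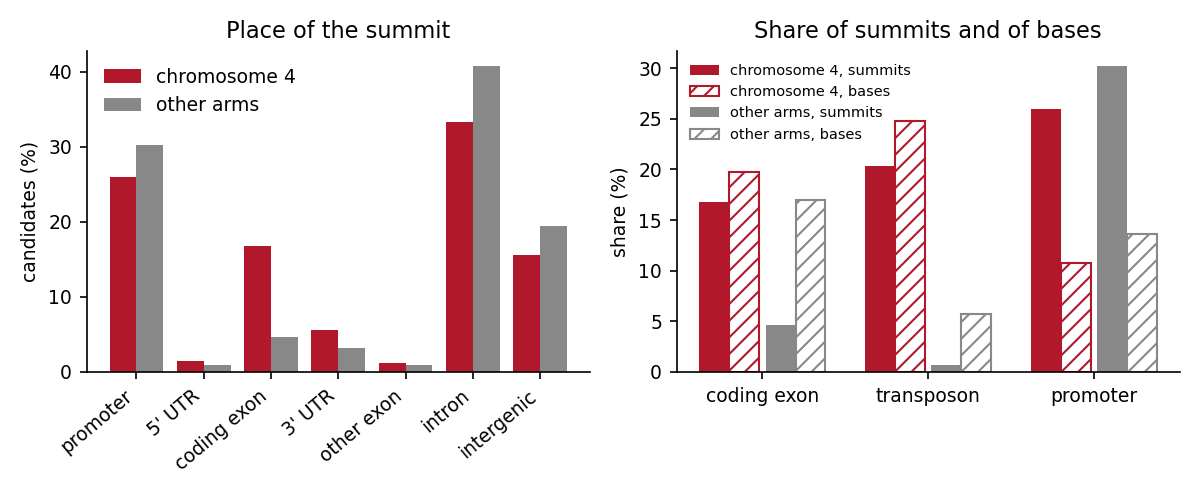
Left, the percentage of pooled candidates with their summit in each kind of place, on chromosome 4 (red) and the other 5 arms together (grey). Right, the percentage of summits (filled) beside the percentage of bases (hatched) in coding exons, transposable elements and promoter windows: on chromosome 4, coding exons have 16.8% of summits and 19.7% of bases, and elsewhere 4.67% and 17.0%.

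By place, with summits in transposable elements counted where they fall, the summits outside promoters and coding exons were in introns (113), intergenic sequence (53), 3' UTRs (19), 5' UTRs (5) and other exons (4). Of the 15 IDR peaks, 7 were at promoters, 6 intergenic, 1 in an intron and 1 in a 3' UTR. Introns thus held 1 of 15, against 33.0% of the IDR peaks of the other arms, and intergenic sequence 6 of 15, against 12.2%. With 15 peaks these shares are coarse, and they were not tested.

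Along the chromosome the candidates were spread widely. The 13 complete windows of 100 kb held 15 to 39 each, with a median spacing of 2.35 kb between summits, and the last 48.1 kb held 1. The longest stretch without a candidate ran for 46.2 kb from 1273861 to 1320048, beside the end of the chromosome. It holds 0 of the 17000 unknown bases of the assembled chromosome 4, which all lie in the window from 1200001 to 1300000, where 16 candidates stood. The stretch lies past Cadps, which ends at 1271759, and the candidate at 1320048 lay in a HeT-A transposable element. How uniquely reads map there was not tested. At the other end, the first candidate stood at 41860. IDR peaks were present in 7 windows, and no IDR peak stood in the 337 kb between the RpS3A peak at 67250 and the peak at 404525, where candidates went on at 25 to 28 per full window. By nearest start, 98 genes had at least 1 candidate. Those with most were pan (13), Cadps (12), CaMKII (9), Sox102F (9) and Mitf, bt and zfh2 (8 each). Cadps encodes a factor that primes dense-core vesicles, and bt the giant muscle protein projectin. All of these but Mitf at 25.6 kb and CaMKII at 18.4 kb span over 30 kb, and the 13 at pan had signals of 27.0 to 65.1 with none past the threshold.

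The IDR peaks of chromosome 4 lay in sequence poor in G and C. The median GC content of the 15 summit windows was 31.7%, as on the other arms together, and ranged from 22.8% at fuss to 52.5% at the Asator peak at 489523. Over all 339 candidates the median was 35.6%, against 36.6 to 38.6% on the other arms, while the whole sequence of chromosome 4 has 35.2% and that of the others 41.6 to 42.6%. The median of the candidates was thus within 1 percentage point of the whole sequence on chromosome 4 and lower than it on the other arms. At the summit base, 19.8% of candidates were repeat-masked, within the 17.6 to 21.8% of the other arms.

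The same windows were searched on both strands for 9 words. They were the DRE word TATCGATA, the BEAF word CGATA (which the DRE word contains), the M1BP word GGTCACAC, the GAGA word GAGAG, the TATA word TATAAA, the Ohler 7 word CATCNCTA, the E-box CACGTG, the Pho word GCCAT and the repeat CACACA. Of the 15 IDR windows 7 held any of them, and the same count for the other arms is not given here. The TATA word was in 4 of the 15, the BEAF, GAGA and Pho words and the CA repeat in 1 each, and the others in none. Among IDR peaks of the other arms the TATA word was in 21.8%, the BEAF word in 16.7%, the GAGA word in 8.61%, the Pho word in 13.2% and the CA repeat in 6.14%. The DRE, M1BP, Ohler 7 and E-box words, in none of the 15, were in 1.83%, 1.05%, 2.12% and 0.683% there. Over the 339 candidates TATAAA was in 19.2%, against 16.5% of candidates on the other arms, 14.99% of windows centred on all annotated starts and 19.1% of those on the starts of chromosome 4. In the same order, CGATA was in 15.3%, 13.1%, 21.4% and 28.4%, GCCAT in 16.8%, 16.8%, 16.8% and 12.6%, GAGAG in 10.03%, 10.9%, 12.6% and 10.4%, and TATCGATA in 2.06%, 1.10%, 3.76% and 4.92%. The pho window, at the gene of the factor itself, held no GCCAT. These are shares of letters in a window and no measure of binding by those factors.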

How the data were processed

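ChIP-seq of GFP-tagged CG10654 was deposited as peak lists on dm6 and dm3. The authors' signal value per peak (field 7) is their enrichment; per the authors' file descriptions, candidates were called in each replicate and in pooled reads against a control, and an IDR list was kept. Those descriptions, as held here, name neither the aligner nor the caller. Replicate 2 has exactly 30000 candidates, perhaps a cap.

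Chromosome 4 was taken from the pooled dm6 list. The dm3 lists, used for counts only, held 300 pooled candidates and 15 IDR peaks there. Summits were annotated with Ensembl release 115 without transposable element entries, which were used separately. Coordinates are 1-based. Summits within 100 bp were matched. A summit within 500 bp of a start counted as promoter, then as 5' UTR, as coding exon, as 3' UTR, as other exon, as intron and last as intergenic. Fisher's exact tests, 2-sided, compared shares (scipy 1.17.1, numpy 2.4.6) and were tested on simulated data. Members, gene lists, words and tests were chosen with earlier results of these data known. Named genes are those nearest the IDR peaks, the 10 strongest candidates that did not pass, the candidates nearest the threshold, the list members with an IDR promoter peak, the highest promoter signals or (up to 5) no candidate, and the genes with most candidates.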

Additional observations from a re-analysis of the deposited data

How the results depend on the processing

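No paired analysis was possible because the samples form 1 group. Of 37 alternatives to the 6 comparisons, 33 kept direction and side of the 0.05 threshold and none reversed. The odds ratio for passing IDR ranged from 0.185 to 0.383 over its 11 alternatives, with 0.185 without replicate 1 and 0.321 without replicate 2. With a replicate left out, candidates among the 4117 strongest of the other replicate's list were counted in place of IDR peaks. That for matching in both replicates ranged from 0.495 to 0.960, and was 0.960 and no longer past the threshold among candidates of like signal, an alternative chosen after seeing the data. The alternatives without candidates in transposable elements, for passing IDR and for matching, were also chosen after seeing the data. The promoter share passed the threshold without replicate 1 (0.661) and not without replicate 2 (0.803). Genes with an IDR promoter summit missed the threshold with the 2058 strongest IDR peaks (0.409). With a replicate left out, and the strongest candidates of the other counted in place of IDR peaks, the odds ratio for genes ranged from 0.289 to 0.568. The cause was not tested. Promoter candidates passing IDR ranged from 0.163 to 0.284, and genes with a promoter candidate from 1.84 to 3.22. Medians of signal cannot be compared between lists. With 15 IDR peaks, shares among them are imprecise, and the read depth behind each list is unknown.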
